A study of Mus musculus with 7 samples.

Results

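The cell cycle and DNA replication genes described here are 35 named genes whose products copy DNA or carry a cell through mitosis. Members were the probe sets whose platform annotation names only 1 of these genes, with 1 set kept per gene, the one with the highest mean over all arrays. By that rule 34 of the 35 were found among 18193 genes on the array. Ccnb1, a mitotic cyclin, had no probe set of its own and was not analysed here. One more, Tyms, the enzyme that makes thymidylate, lay under the filter on dim genes (a mean at or under the 25th percentile of genes, log2 4.588). The other 33 were tested among 13644 genes.

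RNA came from the terminal ileum (the far end of the small intestine) of 7 C57BL6J males at 8 weeks of age. In the control group 3 mice received no antibiotic. The penicillin group held 4 mice given the drug at a low dose of 6.7 mg/L since birth. All 7 were weaned onto chow at 4 weeks and from week 6 were fed a high fat diet, D12451, in which fat supplies 45% of the calories. Each sample was hybridised to its own Affymetrix mouse array, and the labels call the samples biological replicates. One protocol note speaks of livers, while the tissue label and the titles say ileum. The labels give no litter or cage, so a litter or cage difference and penicillin cannot be told apart. Every value below is the log2 expression value of a probe set, and every difference is the penicillin mean minus the control mean, followed by its standard error (SE) in limma.

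In the small intestine cell division is known to be confined to the crypts, where stem cells and their transit-amplifying daughters divide, while the villus is covered by cells that have left the cycle. The MCM helicase is loaded on origins in G1 and opens the DNA in S phase, where polymerase alpha with its primase starts each strand and PCNA clamps the other polymerases to it. Cyclin B with CDK1 then drives mitosis, the Aurora and Polo-like kinases build the spindle, and BUB1, BUBR1 and TTK hold anaphase back until every chromosome is attached. Genes of replication are known targets of E2F factors, and many mitotic genes are known to be controlled through CCAAT boxes and a cell cycle homology region (CHR).

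In the members' promoters, which the choice of members did not use, that division was visible in the CHR and E2F letters but not in CCAAT. RefSeq promoter windows on GRCm38.p6, each from 250 bases before to 50 bases after a gene's start, were at hand for 30 of the 35 members, with 31 windows. Both strands were searched for the CHR letters TTTGAA, for CCAAT, and for the E2F letters TTTCCCGC or TTTGGCGC. Sites that overlapped were counted separately, and 1 pair of different motifs overlapped in the members' windows. Of the 16 windows of mitosis members 12 (75.0%) held TTTGAA and 14 held CCAAT, while 0 held an E2F match. Of the 13 windows of replication members 1 (7.69%) held TTTGAA and 11 held CCAAT, while 6 (46.2%) held an E2F match. Among all 32851 windows of the same length 17.9% held TTTGAA, 37.4% held CCAAT and 1.56% an E2F match. In other genes of the pathway the contrast of CHR and E2F letters was weaker. Of 34 windows of other replication genes 20.6% held TTTGAA, 38.2% CCAAT and 17.65% an E2F match. Of 56 windows of other mitosis genes 62.5% held TTTGAA, 71.4% CCAAT and 8.93% an E2F match. A match is a description of the letters and not a site shown to be bound.

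The 250 bases before the start of 3 mitosis members are printed because each holds both the CHR letters and CCAAT. The 3 replication members are printed because each holds an E2F match and no CHR. Matches to the searched motifs, on either strand, are in capitals and all else is in lower case. In Top2a a CHR match begins 23 bases before the start, in Ube2c 29 bases and in Cdk1 15 bases, while in Mcm6 the E2F matches begin 110 and 47 bases before it.
Top2a, chr11:99024190-99024439, minus strand: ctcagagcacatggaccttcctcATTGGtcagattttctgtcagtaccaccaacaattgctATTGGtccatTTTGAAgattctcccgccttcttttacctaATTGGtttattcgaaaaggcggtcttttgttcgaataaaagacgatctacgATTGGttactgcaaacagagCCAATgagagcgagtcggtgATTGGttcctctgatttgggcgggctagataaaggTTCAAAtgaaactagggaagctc
Ube2c, chr2:164769679-164769928, plus strand: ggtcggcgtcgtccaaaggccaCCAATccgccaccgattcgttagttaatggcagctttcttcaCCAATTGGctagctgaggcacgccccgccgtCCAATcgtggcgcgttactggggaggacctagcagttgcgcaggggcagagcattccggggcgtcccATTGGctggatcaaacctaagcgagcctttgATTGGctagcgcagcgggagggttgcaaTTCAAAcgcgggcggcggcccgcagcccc
Cdk1, chr10:69352913-69353162, minus strand: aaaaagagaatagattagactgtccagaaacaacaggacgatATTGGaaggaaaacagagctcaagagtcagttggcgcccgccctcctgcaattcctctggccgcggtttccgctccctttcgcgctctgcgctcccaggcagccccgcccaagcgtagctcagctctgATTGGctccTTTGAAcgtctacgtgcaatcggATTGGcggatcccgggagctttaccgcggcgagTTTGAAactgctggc
Mcm6, chr1:128359706-128359955, minus strand: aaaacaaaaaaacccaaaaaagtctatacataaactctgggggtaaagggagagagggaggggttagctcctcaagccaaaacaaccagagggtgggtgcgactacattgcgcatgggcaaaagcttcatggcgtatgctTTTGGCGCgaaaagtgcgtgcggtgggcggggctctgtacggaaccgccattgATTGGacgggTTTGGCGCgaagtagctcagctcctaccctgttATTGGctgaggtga
Mcm5, chr8:75109259-75109508, plus strand: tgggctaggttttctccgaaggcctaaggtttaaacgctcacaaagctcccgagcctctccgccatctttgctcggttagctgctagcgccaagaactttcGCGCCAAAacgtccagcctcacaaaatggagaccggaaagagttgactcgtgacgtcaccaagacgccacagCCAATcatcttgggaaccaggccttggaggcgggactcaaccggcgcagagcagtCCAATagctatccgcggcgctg
Cdc6, chr11:98907901-98908150, plus strand: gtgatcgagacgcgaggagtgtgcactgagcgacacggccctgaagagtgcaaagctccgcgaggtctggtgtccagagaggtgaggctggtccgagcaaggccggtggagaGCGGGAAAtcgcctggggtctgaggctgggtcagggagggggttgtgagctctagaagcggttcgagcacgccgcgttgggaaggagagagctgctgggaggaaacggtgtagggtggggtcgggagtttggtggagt

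Across the series 1 control array stood apart. A first principal component over the genes tested took up 48.0% of the variance. On it control replicate 3 lay at -30.0, penicillin replicate 3 at 17.6 and the rest between -2.90 and 6.65. Car1, a carbonic anhydrase of colon epithelium, reached log2 14.10 in that array and 5.11 to 10.82 in the rest. Fabp6, which binds bile acids in ileal epithelium, lay between 14.28 and 14.64 in all 7 arrays. It moved least among 6 ileal enterocyte genes, all lower in control replicate 3 than the mean of the other controls. Their gaps ran from -1.70 to -0.18, with a median of -0.83. Slc10a2, an ileal gene, was at 10.99, 10.71 and 9.91 in control replicates 1 to 3. Differences are therefore given with and without control replicate 3.

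The series asks how expression in the ileum differs after low-dose penicillin from birth, and for the cell cycle genes no difference passed the test. Of the 33 members tested 0 passed in limma (adjusted p under 0.05 by Benjamini-Hochberg), where 0.0953% of all genes did, and the smallest adjusted p of a member was 0.502, for Mcm7. At an unadjusted p under 0.05 there were also 0 members, against 6.35% of all genes lower and 4.37% higher. In 0 of 33 were the groups free of overlap, against 6.05% of all genes lower and 4.29% higher. The values leaned one way all the same: 32 of 33 members had a lower mean in penicillin mice, where 54.7% of all genes did, with a median difference of -0.16 over members and -0.014 over all genes. The differences ran from -0.28 for Top2a to 0.018 for Cdc6, and the 95% intervals of the 33 reached from -0.61 at the lowest to 0.28 at the highest.

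That lean was not kept without control replicate 3. In 31 of 33 members it was the highest array, where 30.3% of all genes had their highest value in it. Without it 19 of 33 members were lower and 14 higher, where 51.7% of all genes were lower, and the median difference was -0.0099. The lowest array was penicillin replicate 3 in 25 of 33 members, where 20.6% of all genes had their lowest value in it. Without control replicate 3 and penicillin replicate 3 together 10 of 33 members were lower, where 50.4% of all genes were, and the median was 0.045. Leaving out a control array that is highest in most members lowers their control means by construction. Leaving out a penicillin array that is lowest in most members likewise raises their penicillin means. Neither count is thus a like comparison with all genes.

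**Figure D1:**
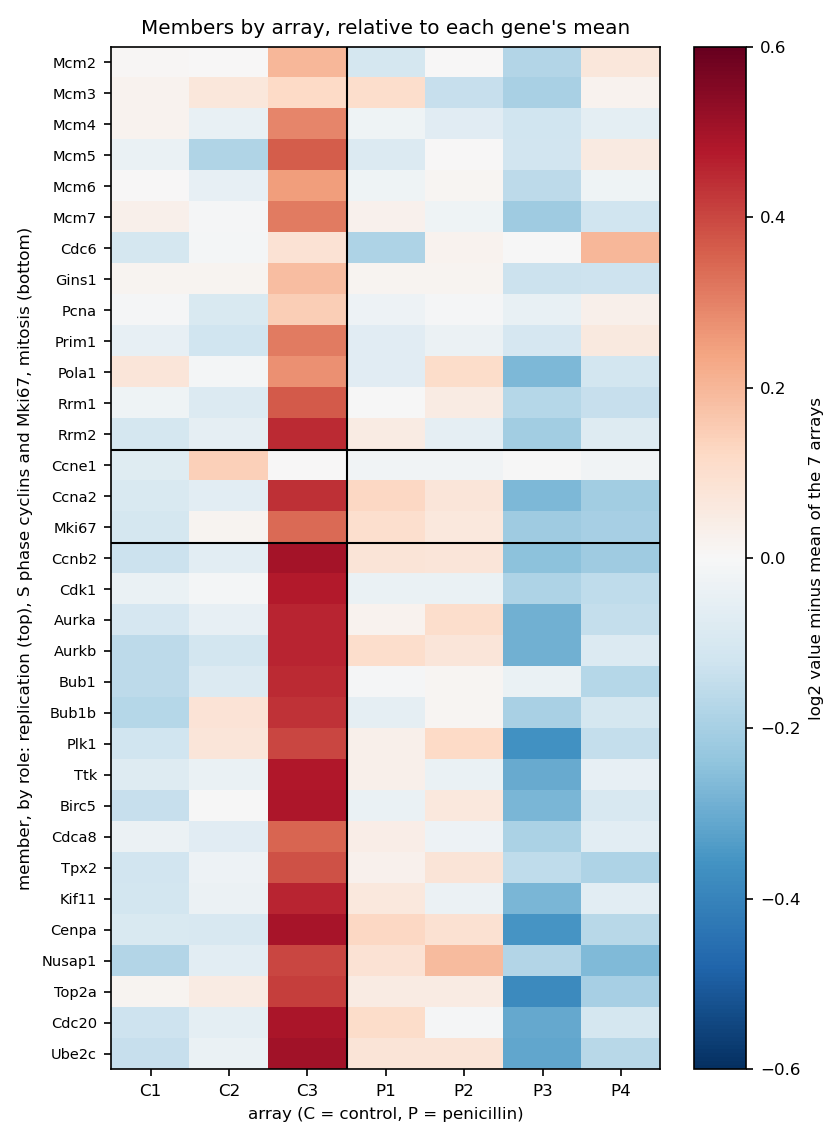
Heat map of the 33 members tested (rows, by role) in the 7 arrays (columns, C for control and P for penicillin replicates), coloured by log2 value minus the gene's mean over the 7 arrays. The column of control replicate 3 is the highest in 31 of 33 rows and that of penicillin replicate 3 the lowest in 25.

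The replication members number 14, of which 13 were tested. Their median difference was -0.12, with 12 lower and 1 higher, and it was -0.025 without control replicate 3, with 8 lower and 5 higher. The array means over the 13, set against their mean in all 7 arrays, were -0.013, -0.043 and 0.26 in control replicates 1 to 3. In penicillin mice they were -0.030, -0.0088, -0.15 and -0.017. Control replicate 3 was the high array and penicillin replicate 3 the low one, and the 5 others lay between -0.043 and -0.0088.

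The 6 subunits of the MCM2-7 helicase, which unwinds DNA at the fork, differed by -0.084 to -0.20. Mcm7, the member with the smallest adjusted p, was at log2 10.97, 10.94 and 11.25 in control mice and at 10.97, 10.91, 10.73 and 10.82 in penicillin mice. Control replicate 3 was the highest and the other control arrays lay beside penicillin replicate 1, so the groups overlapped. Its difference was -0.20 ± 0.095 (SE, limma adjusted p = 0.502), and -0.096 ± 0.076 without control replicate 3. Mcm5 was at 9.62, 9.49 and 10.03 in control mice and at 9.58, 9.67, 9.55 and 9.72 in penicillin mice. Here the lowest of all 7 arrays was a control, and the difference of -0.084 ± 0.12 became 0.074 ± 0.071 without control replicate 3. A less bright probe set of Mcm5, at a mean of 7.26, did not change sign. It differed by -0.22, and by -0.19 without control replicate 3. Mcm2, Mcm3, Mcm4 and Mcm6 differed by -0.12, -0.12, -0.16 and -0.12, and without that array by -0.057, -0.097, -0.057 and -0.025.

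Around the helicase, Cdc6, which loads MCM2-7 on origins, was the single member with a higher mean in penicillin mice. It was at 6.13, 6.22 and 6.32 in control mice and at 6.05, 6.25, 6.23 and 6.43 in penicillin mice. Penicillin replicate 4 was the highest array and penicillin replicate 1 the lowest, so the penicillin group spanned the control group, with a difference of 0.018 ± 0.095 (SE), and of 0.067 without control replicate 3. Gins1, a subunit of the GINS complex that holds the helicase active, differed by -0.13 ± 0.069, and by -0.070 without that array. Both Gins1 and Cdc6 had intervals that included 0.

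Among the proteins that make DNA, Pcna, the sliding clamp, had close means in the groups. It was at 11.77, 11.69 and 11.92 in control mice and at 11.75, 11.77, 11.73 and 11.81 in penicillin mice. All 4 penicillin arrays lay inside the control range, and the difference was -0.029 ± 0.066 (SE, 95% interval -0.18 to 0.12), or 0.035 without control replicate 3. Prim1, the primase that lays RNA primers, differed by -0.085 ± 0.11, and Pola1, the catalytic subunit of polymerase alpha, by -0.20 ± 0.10. Without control replicate 3 they differed by 0.047 and -0.12.

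Of the enzymes that supply deoxynucleotides, Rrm2, the small subunit of ribonucleotide reductase, was at 8.88, 8.93 and 9.44 in control mice. In penicillin mice it was at 9.04, 8.93, 8.78 and 8.91. Penicillin replicate 1 was above control replicates 1 and 2, and control replicate 3 was above all. The difference was -0.17 ± 0.14 (SE), and 0.0084 ± 0.077 without that array. Rrm1, the large subunit, differed by -0.15 ± 0.12 and by -0.0099 ± 0.078. Tyms, under the filter and so not tested, lay between 3.97 and 4.28 in control mice and between 3.70 and 3.97 in penicillin mice. A further probe set that the annotation gives to both Tyms and a Tyms pseudogene was left out by the rule.

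The S phase cyclins and Mki67 lie between the arms. Mki67, the proliferation antigen that coats mitotic chromosomes, was at 10.34, 10.46 and 10.78 in control mice and at 10.55, 10.51, 10.23 and 10.24 in penicillin mice. Penicillin replicates 1 and 2 were above control replicates 1 and 2, and penicillin replicates 3 and 4 below them. The difference was -0.15 ± 0.13 (SE, 95% interval -0.44 to 0.15), and -0.018 ± 0.11 without control replicate 3. Ccna2, cyclin A2 of S phase and G2, differed by -0.16 ± 0.16 and by 0.0082 ± 0.12 without that array. Ccne1, cyclin E1 of the G1 to S transition, was, with Cdc6, 1 of the 2 members whose highest array was not control replicate 3. It was at 7.04, 7.25 and 7.11 in control mice and at 7.09, 7.09, 7.11 and 7.09 in penicillin mice. Its highest and lowest arrays were both among control replicates 1 and 2. Its difference was -0.040 ± 0.061, or -0.051 without control replicate 3, and that of its other probe set was 0.072.

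The mitosis members number 18, of which 17 were on the array and tested. All 17 had a lower mean in penicillin mice, with a median difference of -0.18 and a range of -0.095 to -0.28. Without control replicate 3, the highest array of all 17, there were 9 lower and 8 higher, with a median of -0.0037. Their array means, relative to the mean of the 7 arrays, were -0.11, -0.032 and 0.45 in control mice and 0.041, 0.046, -0.25 and -0.14 in penicillin mice. Penicillin replicates 1 and 2 thus lay above control replicates 1 and 2, and penicillin replicates 3 and 4 below them.

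Of cyclin B and its kinase, Ccnb2, cyclin B2, was at 9.46, 9.52 and 10.09 in control mice and at 9.66, 9.66, 9.34 and 9.38 in penicillin mice. Control replicate 3 was above the mean of the other controls by 0.59 (1.51-fold), the largest such gap of any member. The difference between groups was -0.18 ± 0.16 (SE, limma adjusted p = 0.675), and 0.019 ± 0.11 without that array. Cdk1, whose promoter is printed above, was at 9.98, 10.01 and 10.50 in control mice and at 9.98, 9.98, 9.84 and 9.87 in penicillin mice. Its penicillin arrays were tight, at or below the lower controls, and it differed by -0.25 ± 0.13 with all arrays and -0.080 ± 0.063 without control replicate 3.

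The 6 kinases of mitosis and the spindle checkpoint differed by -0.11 to -0.21. Aurkb, the kinase of the chromosomal passenger complex, was at 8.01, 8.05 and 8.62 in control mice and at 8.27, 8.24, 7.87 and 8.08 in penicillin mice. Of the penicillin arrays 3 were above control replicates 1 and 2. The difference was -0.11 ± 0.16 (SE), and without control replicate 3 it was 0.086 ± 0.11, the highest value of any member. Plk1, the Polo-like kinase, differed by -0.21 ± 0.15 and Ttk, the checkpoint kinase that acts first at kinetochores, by -0.21 ± 0.15, or by -0.066 and -0.032 without that array. Aurka, the kinase of the spindle poles, went from -0.18 to -0.0037. Bub1 and Bub1b, which hold back anaphase, differed by -0.12 and -0.20, and by 0.068 and -0.040 without that array.

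Among proteins of the spindle and chromosomes Top2a, the topoisomerase that untangles sister chromatids, had the largest difference of all members. It was at 10.31, 10.34 and 10.71 in control mice and at 10.34, 10.34, 9.91 and 10.09 in penicillin mice. Control replicates 1 and 2 lay beside penicillin replicates 1 and 2, and penicillin replicates 3 and 4 were lower. The difference was -0.28 ± 0.14 (SE, 1.22-fold, 95% interval -0.61 to 0.043, limma adjusted p = 0.508), and -0.15 ± 0.13 without control replicate 3. Cenpa, the histone H3 variant of centromeres, differed by -0.18 ± 0.18, the widest error of any member, and by 0.017 without control replicate 3. Birc5 and Cdca8, partners of Aurkb in the passenger complex, differed by -0.20 and -0.14, Tpx2, which activates Aurka on the spindle, by -0.14, and Kif11, the motor that separates the poles, by -0.18. Without that array Birc5, Cdca8, Tpx2 and Kif11 differed by -0.017, -0.010, 0.015 and -0.0074. Nusap1, a spindle microtubule protein, differed by -0.095, and by 0.077 without control replicate 3.

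Anaphase is started by the anaphase-promoting complex, for which Cdc20 is the activator and Ube2c the ubiquitin-conjugating enzyme. Cdc20 was at 10.71, 10.77 and 11.32 in control mice and at 10.94, 10.82, 10.52 and 10.73 in penicillin mice. Ube2c was at 10.20, 10.30 and 10.84 in control mice and at 10.42, 10.42, 10.03 and 10.17 in penicillin mice. In both genes penicillin replicates 1 and 2 were above the 2 lower controls and penicillin replicate 3 was the lowest array. They differed by -0.18 ± 0.16 and -0.19 ± 0.17 (SE), and by 0.015 and 0.0095 without control replicate 3.

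**Figure D2:**
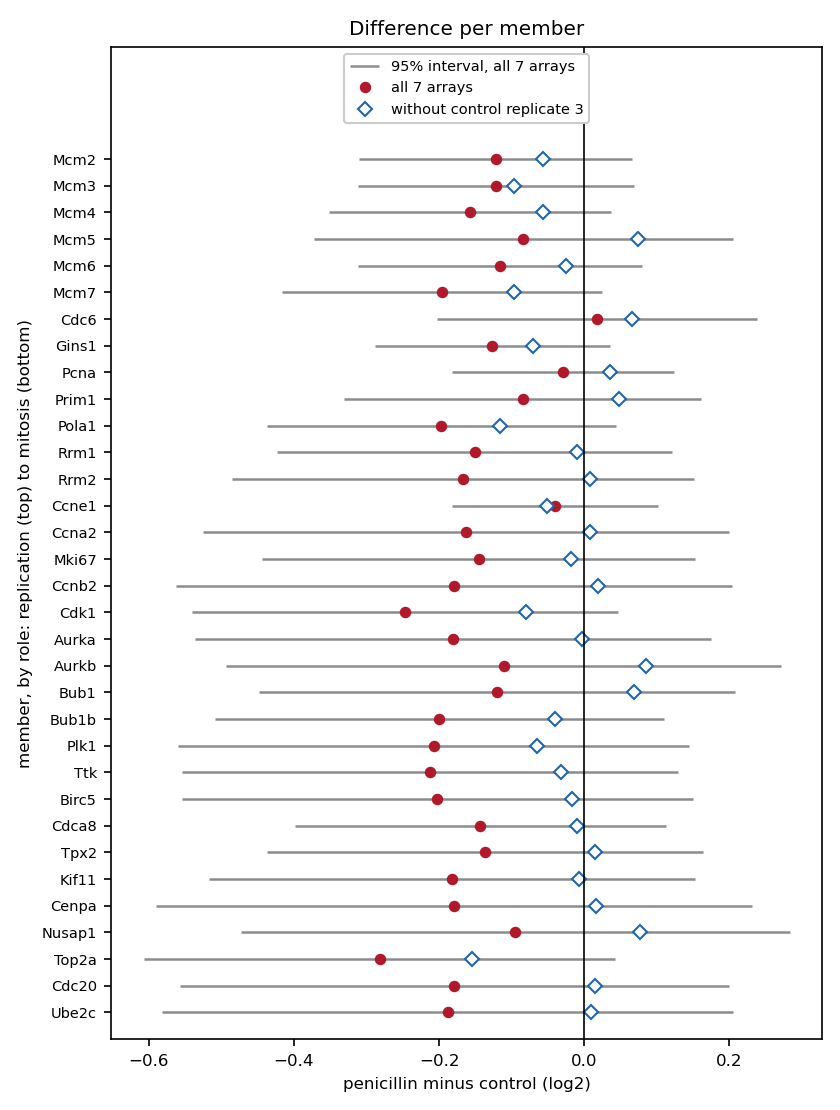
Difference of each of the 33 members (rows, replication at the top, mitosis at the bottom) in log2 units, penicillin minus control, with the 95% interval of limma for all 7 arrays (line and filled point) and the difference without control replicate 3 (open diamond). Every line crosses 0, and the diamonds run from -0.15 for Top2a to 0.086 for Aurkb.

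Set against the replication members, the mitosis members spread more from array to array. The standard deviation within groups, pooled over both, had a median of 0.23 over mitosis members, 0.14 over replication members and 0.11 over all genes. Without control replicate 3 these medians were 0.15, 0.091 and 0.091. The gap between control replicate 3 and the mean of the other controls had a median of 0.53 (1.45-fold) over mitosis members, from 0.38 for Top2a to 0.59 for Ccnb2. Over replication members it was 0.27 (1.21-fold), from 0.075 for Mcm3 to 0.53 for Rrm2, and over all genes it was 0.026. Penicillin replicate 3 minus the mean of the other penicillin arrays had a median of -0.26 over mitosis members, -0.14 over replication members and -0.0073 over all genes. The mean of the mitosis members minus that of the replication members was -0.096, 0.011 and 0.19 in control mice and 0.071, 0.055, -0.11 and -0.12 in penicillin mice. The groups overlapped in it, and their means were 0.035 ± 0.145 (SD, n = 3) and -0.026 ± 0.103 (SD, n = 4).

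Other genes of the pathway, from lists that hold no member, followed the same arrays. Of 35 other replication genes tested 0 passed, 32 were lower and 3 higher, with a median difference of -0.084. Without control replicate 3 there were 20 lower and 15 higher, with a median of -0.0049. Cdc7, the kinase that fires origins, differed by -0.20 ± 0.079 (SE, adjusted p = 0.443), Cdc45, a helicase partner, by -0.20 ± 0.10, and the polymerase delta subunits Pold1 and Pold2 by -0.13 and -0.19. With control replicate 3 left out Cdc7, Cdc45, Pold1 and Pold2 differed by -0.13, -0.079, -0.086 and -0.13. Of 60 other mitosis genes tested 0 passed, 54 were lower and 6 higher, with a median of -0.13, or of 0.031 without control replicate 3, with 23 lower and 37 higher. Control replicate 3 was the highest array of 29 of the 35 and of 58 of the 60. Ccnf, cyclin F, differed by -0.24 ± 0.097 (SE, adjusted p = 0.453), Cdc25c, the phosphatase that activates CDK1, by -0.21, and Sgo2a, a guardian of cohesin, by -0.19, while Troap, a spindle protein, differed by 0.15 ± 0.068. In the 6 arrays other than control replicate 3 Ccnf, Cdc25c, Sgo2a and Troap differed by -0.12, -0.12, -0.10 and 0.19.

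Over genes of G1 control the gap between control replicate 3 and the other controls had a median of 0.034. Of 17 tested 0 passed, 12 were lower and 5 higher, with a median of -0.041 and of -0.011 without control replicate 3. Ccnd1, cyclin D1, which drives the exit from G1, was at 10.43, 10.45 and 10.37 in control mice and at 10.02, 9.98, 9.71 and 9.81 in penicillin mice. The groups did not overlap, and control replicate 3 lay beside the other controls. The difference was -0.54 ± 0.085 (SE, adjusted p = 0.0956), which missed the threshold, and -0.56 ± 0.098 (adjusted p = 0.129) without that array. The 3 probe sets of Ccnd1 differed by -0.44 to -0.54. Rb1, the retinoblastoma protein that restrains E2F, differed by 0.24 ± 0.084 (adjusted p = 0.410), and the CDK inhibitors Cdkn1a and Cdkn1b by 0.19 and -0.061. Without that array Rb1, Cdkn1a and Cdkn1b differed by 0.14, 0.077 and -0.044.

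Of 18 transcription factors of the cycle and their partners 0 passed, 10 were lower and 8 higher, with a median of -0.052. In the 6 arrays without control replicate 3 there were 8 lower and 10 higher, with a median of 0.0023. E2f2 and E2f3, activators of replication genes, went opposite ways: E2f2 differed by -0.27 ± 0.074 (SE, adjusted p = 0.305) and E2f3 by 0.28 ± 0.083 (adjusted p = 0.339). E2f1, Foxm1 and Mybl2, which drive replication and mitosis genes, differed by -0.039, 0.050 and 0.0061. Lin54, the subunit of the DREAM complex that contacts CHR letters, differed by 0.15 ± 0.060. In those 6 arrays E2f2, E2f3 and Lin54 differed by -0.23, 0.23 and 0.19, and E2f1, Foxm1 and Mybl2 by 0.0039, 0.088 and 0.033.

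Markers of the cells that do and do not divide were read on the same arrays. The villus enterocyte list, with 14 of 16 genes tested, had array means of 0.019, 0.052 and -0.82 in control mice and -0.052, 0.15, 0.56 and 0.099 in penicillin mice. It was thus lowest in control replicate 3, where the mitosis members were highest, and highest in penicillin replicate 3, where they were lowest. All 14 enterocyte genes were lower in control replicate 3 than in the other controls, with a median gap of -0.76. Slc15a1, a peptide transporter of the brush border, was at 9.79, 9.86 and 8.48 in control mice. The crypt base stem cell list, with 14 of 14 tested, had array means of -0.018, -0.071 and 0.081 in control mice and 0.095, 0.0095, -0.13 and 0.029 in penicillin mice. Like the members it had its highest control mean in replicate 3 and its lowest of all in penicillin replicate 3. Of its 14 genes 11 were higher in control replicate 3 than in the other controls, and 13 were lower in penicillin replicate 3 than in the other penicillin arrays. Lgr5, a stem cell receptor, was at 7.74, 7.71 and 7.76 in control mice, and Olfm4, a secreted stem cell marker, was at 12.46, 12.45 and 12.75. In bulk tissue fewer cells of a type and less RNA per cell cannot be told apart, and the part of these markers in the members' values was not tested.

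**Figure D3:**
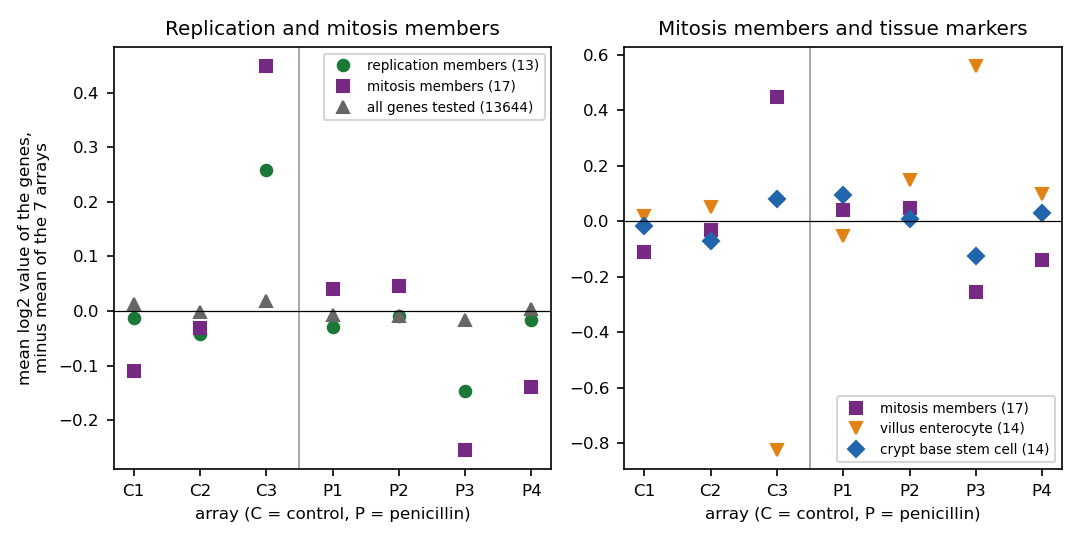
Mean log2 value of each gene list in each array (C for control and P for penicillin replicates), minus its mean over the 7 arrays, with the number of genes in parentheses. Left, replication and mitosis members stand at 0.26 and 0.45 in control replicate 3. Right, villus enterocyte genes stand at -0.82 there and at 0.56 in penicillin replicate 3, opposite to the mitosis members.

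Dividing lymphocytes of the follicles also express these genes, so their markers were read too. The germinal centre B cell list, with 6 of 10 genes tested, lay between -0.046 and 0.15 in control mice and between -0.032 and 0.0023 in penicillin mice. The B cell list, with 5 of 11 tested, lay between 0.065 and 0.11 and between -0.28 and 0.040. The T cell list, with 7 of 10 tested, lay between 0.11 and 0.27 and between -0.28 and -0.0023, and the plasma cell list, with 9 of 9 tested, between 0.24 and 0.35 and between -0.34 and -0.16. The B, T and plasma cell lists had their lowest mean in penicillin replicate 3, as the members did, and their highest in control replicate 2. Unlike the members, the germinal centre B cell list had its lowest mean in control replicate 3, at -0.046. Its highest penicillin mean was in replicate 3, at 0.0023. The means of the B, T and plasma cell lists were lower in every penicillin mouse than in every control mouse. Gene by gene the lists differed. Of the 5 B cell genes 3 were lower and 2 higher, and only Cd79b, at -0.74, was free of overlap. Of the 7 T cell genes 6 were lower, and 2 were free of overlap, Cd3g at -1.29 and Cd3d at -0.59. All 9 plasma cell genes were lower, 6 of them without overlap, where 6.05% of all genes were lower without overlap. Paneth cell genes, 7 of 7 tested, lay between 0.20 and 0.32 and between -0.30 and -0.084, again without overlap, with the highest mean in control replicate 3 and the lowest in penicillin replicate 3. Colon genes, 6 of 11 tested, were at 1.59 in control replicate 3 and between -0.62 and 0.30 in the other 6 arrays. That mean came mainly from Car1 and Aqp8, at 14.10 and 8.27 there and at 7.38 and 3.86 in control replicate 1. Within the list 4 genes were higher there than the mean of the other controls and 2 lower, with a median gap of 0.25. The 2 lower ones were Car4, at 11.53, and Mettl7b, at 10.19. Ileum genes, 6 of 6 tested, were at -0.54 in control replicate 3 and between -0.12 and 0.35 in the other arrays. Goblet cell genes, 8 of 8 tested, lay between 0.0071 and 0.041 and between -0.097 and 0.093, and smooth muscle genes, 8 of 8 tested, between -0.025 and 0.26 and between -0.38 and 0.14. Of the red cell list 1 of 6 was tested. No gene of these lists passed the test. Their part in the members' values was not tested.

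With all 7 arrays, control replicate 3 included, the probe sets not used leaned the same way where they were bright. The 34 members had 79 probe sets, and 26 members had more than 1. Of the 45 sets not used, 30 were above the level of the filter, with 25 lower and 5 higher in penicillin mice. The 15 below that level were divided, with 8 lower and 7 higher. Of all genes tested 54.7% were lower. Without control replicate 3 some of the 25 bright lower sets turned higher, among them sets of Aurkb, Cdc20, Kif11, Rrm1 and Mcm7. Most of the 25 stayed lower, such as sets of Rrm2 and Top2a and other sets of Mcm7.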

How the data were processed

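Expression was measured in terminal ileum RNA on 7 Affymetrix arrays, 3 control and 4 penicillin. The authors deposited log2 values. The submitters' processing notes name RMA and affy for them, and the sources used here give neither version nor settings. RMA sets all arrays to one distribution, so a change shared by most genes would not be seen. Of 45101 probe sets, 34958 named 1 gene in the platform annotation, 932 several and 9211 none. Each gene was read from its probe set with the highest mean.

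Genes with a mean above the 25th percentile (13644) were tested in limma 3.58.1 (R 4.3.3; lmFit and eBayes, two-sided, Benjamini-Hochberg adjusted p under 0.05 over all 13644). The number of arrays limits the precision. Sums, list means and figures were made in Python 3.11.15 and matplotlib 3.10.9. The scripts were tested on simulated data.

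The members and lists were chosen with earlier results of these data known. Named genes were all members, up to 4 tested genes per list with the largest moderated t, any past the threshold in a pathway list, and E2f1, Foxm1, Mybl2, Ccnd1, Cdkn1a, Cdkn1b, Lgr5, Olfm4, Fabp6, Car1 and Aqp8. Not all of these are printed, and 1 further item is not reported here. Alternatives changed the normalisation, filter, probe set, variance model, block, threshold and arrays used.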

Additional observations from a re-analysis of the deposited data

Results flagged for a closer look

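In the penicillin group Ccne1, cyclin E1, had 1 array apart from the rest: penicillin replicate 3 was at log2 7.11, while the other 3 arrays shared the value 7.09. The gap divided by the group's range was 1, because those 3 values are identical as deposited. Among 34 members looked at 1 was marked in this way, and chance marks about 1 in 20 groups. Over all genes tested 43.4% had an identical value in at least 2 arrays, and 7 of 33 members (21.2%) did. The control group of 3 was too small for this look.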

How the results depend on the processing

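The count of 0 members past the threshold was the same under every alternative run. Over all genes the count of 13 became 7 with the mean of probe sets, 774 with array quality weights, 40 at an adjusted p under 0.1 and 2 when control replicate 3 and penicillin replicate 3 were both left out. Leaving out 1 array gave 0 to 15: 0 without control replicate 1 or 2 or penicillin replicate 1 or 4, 8 without control replicate 3, 2 without penicillin replicate 3 and 15 without penicillin replicate 2. The median over members, -0.16, ranged from -0.23 to -0.0099 with 1 array left out, that of mitosis members from -0.29 to -0.0037 and that of replication members from -0.18 to -0.025. The mitosis minus replication difference, -0.061, ranged from -0.13 to 0.017. With array quality weights the medians of members and of mitosis members were 0.019 and 0.050, and the mitosis minus replication difference was 0.069. Without both replicates 3 the medians of all, replication and mitosis members were 0.045, 0.012 and 0.058. The cause was not tested.

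Differences of single members changed sign as follows. With array quality weights they were Mcm5 0.013, Prim1 0.0076, Rrm2 0.015, Ccne1 0.032, Ccna2 0.037, Mki67 0.047, Ccnb2 0.057, Aurka 0.042, Aurkb 0.12, Bub1 0.081, Bub1b 0.062, Plk1 0.050, Birc5 0.054, Tpx2 0.060, Kif11 0.019, Cenpa 0.038, Nusap1 0.15, Cdc20 0.043 and Ube2c 0.066. Without control replicate 3 and penicillin replicate 3 together they were Mcm5 0.10, Mcm6 0.012, Pcna 0.046, Prim1 0.069, Rrm1 0.025, Rrm2 0.054, Ccna2 0.074, Mki67 0.033, Ccnb2 0.075, Aurka 0.066, Aurkb 0.17, Bub1 0.064, Plk1 0.026, Ttk 0.038, Birc5 0.045, Cdca8 0.032, Tpx2 0.046, Kif11 0.058, Cenpa 0.11, Nusap1 0.12, Cdc20 0.091 and Ube2c 0.087. With the mean of probe sets Ccne1 was 0.016. With 1 array left out the ranges were Cdc6 -0.046 to 0.082, Ccne1 -0.088 to 0.019, Mcm5 -0.20 to 0.074, Pcna -0.083 to 0.035, Prim1 -0.17 to 0.047, Rrm2 -0.27 to 0.0084, Ccna2 -0.26 to 0.0082, Ccnb2 -0.29 to 0.019, Aurkb -0.22 to 0.086, Bub1 -0.23 to 0.068, Tpx2 -0.23 to 0.015, Cenpa -0.28 to 0.017, Nusap1 -0.21 to 0.077, Cdc20 -0.29 to 0.015 and Ube2c -0.31 to 0.0095.

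Deviations of same-numbered arrays from their group means correlated at -0.16, 0.0030 and -0.42. Arrays with different numbers were not compared, so these values cannot settle whether replicate numbers pair the samples. With a replicate block 0 genes and 0 members passed, and Cdc6 was -0.046. Penicillin replicate 4 has no partner, so the block leaves it without weight: its differences equal those without penicillin replicate 4, which also gave 0 genes, and the effects of block and array cannot be told apart. The quantile, median-centring, filter and trend alternatives kept the direction of the medians.

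With 3 and 4 arrays the 95% intervals of all 33 members tested included 0. No reading of cell numbers is possible from these values, and p-values cover only the spread between these mice.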

Other observations

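Among crypt base stem cell genes 8 of 14 were higher and 6 lower in penicillin mice, and 0 passed the test in limma. At an unadjusted p under 0.05 in limma there were 2, both higher, where 4.37% of all genes were higher. In 2 the groups were free of overlap, both higher, where 4.29% of all genes were. The genes below were named for their large moderated t. Ascl2, a transcription factor of intestinal stem cells, was at log2 6.74, 6.88 and 6.96 in control mice and at 7.09, 7.09, 7.07 and 7.31 in penicillin mice. The groups did not overlap, and the difference was 0.28 ± 0.082 (SE, adjusted p = 0.333), or 0.33 ± 0.087 (adjusted p = 0.248) without control replicate 3. Msi1, an RNA-binding protein of progenitors, differed by 0.23 ± 0.077 (adjusted p = 0.397), or 0.30 without control replicate 3. Axin2, also of this list, went the other way and differed by -0.18 ± 0.099 (adjusted p = 0.530), or -0.24 ± 0.11 without control replicate 3. Prom1, which is also found on other epithelial cells, differed by -0.31 ± 0.18, or -0.097 without control replicate 3, where it had its highest value, 11.9.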
